A study of Sus scrofa with 80 samples.

Results

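The interleukin and TNF superfamily genes were described here in the blood of young pigs. The members were the probe sets whose only gene symbol on the array platform begins with IL and a digit, with TNFRSF or with TNFSF, leaving out IL10, IL10RA and IL10RB. Where a gene had several probe sets, the one with the highest mean was taken. This gave 37 of the 6765 genes with a symbol of their own, or 45 of 23999 probe sets. They comprised 20 ligands, 16 receptors and 1 soluble binding protein, IL18BP. All 37 symbols matched a RefSeq gene of the same name.

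Interleukins are secreted proteins by which white blood cells signal to each other, and each acts through receptor chains that are often common to several ligands. Ligands of the TNF superfamily are mostly made on the cell surface and can be released from it, and their receptors steer survival, death and activation of cells. In blood, monocytes and neutrophils are known as main sources of IL-1 family ligands, whereas the receptors of the common gamma chain family are prominent on lymphocytes. The roles given below are those known from human and mouse.

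The study measured RNA of blood drawn from the anterior vena cava of pigs aged 35 days, on 80 Affymetrix porcine arrays. The arrays form 8 trait pairs, each with 5 arrays of pigs from the low tail and 5 from the high tail of the pair's self-product, a value calculated from both traits. The traits were CD4+ and CD8+ by flow cytometry, IFN-alpha and IL-10 by immunological kits, and body weight at day 35 (W35). No agent or genotype separates the groups, and the labels used here give no breed, litter or sex. Values are log2 expression, and every difference between groups is high minus low with 5 arrays per group.

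The same pigs served in several pairs. Columns that correlated above 0.99 over all probe sets were taken as 1 pig, which left 29 pigs, of which 21 served in more than 1 pair and 13 were low in some pairs and high in others. The 8 comparisons are therefore not independent, and their values are set side by side only. Means of cell type lists marked the samples as blood: the erythroid list lay between 7.33 and 10.56 over the pigs, the neutrophil list between 6.77 and 9.19, the monocyte list between 6.81 and 8.72, and the T cell list between 7.70 and 9.68, against a median of 5.61 over all probe sets. The hybridisation controls bioB and bioC split the arrays into a lower spike-in class of 26 arrays from 11 pigs and a higher class of 54 arrays from 18 pigs. EIF1AY, a Y-linked gene, lay between 2.73 and 3.30 in 18 pigs and between 7.42 and 8.84 in 11. An array gives no counts, so the number of arrays sets the precision. Since each array is of RNA from all cells of the blood, fewer cells of a type and less RNA per cell cannot be told apart.

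Members that varied most between pigs were the IL-1 family ligands, IL15, IL7R and TNFSF10. The SD over the 29 pigs exceeded 0.8 in 7 members, or 18.9% of them, as it did in 3.72% of all probe sets. The median SD was 0.415 over the 37 members and 0.343 over all probe sets. It was 0.325 over the 20 ligands and 0.505 over the 16 receptors. Among the ligands the spread followed the level: the 8 ligands at or above the median probe set had a median SD of 0.830, and the 12 below it 0.300. For the receptors these values were 0.510 for 12 and 0.390 for 4. All probe sets had 0.417 and 0.274.

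IL1B, the secreted inflammatory ligand that caspase-1 activates, had the largest spread of all members. Its lowest, median and highest level over the 29 pigs were 7.55, 9.85 and 11.95, with an SD of 1.21. The SD between columns of the same pig in different pairs was 0.042, 28.7 times less. Columns were joined as 1 pig because they correlated above 0.99, so a small SD within pigs follows in part from that rule. The labels do not say whether such columns are separate hybridisations or 1 array normalized again. The SD within pigs is therefore no measure of technical noise between arrays. IL1A, the related ligand that can act while bound to the cell, ran from 5.38 through a median of 6.76 to 8.65, with an SD of 0.988. For each of these ligands the other probe set of the gene varied with the chosen one, with r = 0.949 for IL1A and r = 0.962 for IL1B over 29 pigs. IL18, which induces interferon-gamma in lymphocytes, ran from 7.30 through 10.11 to 11.96 (SD 1.10). IL18BP, the secreted protein that captures IL18, ran from 7.30 through 9.16 to 10.66 (SD 0.784). The receptors of the family varied less: IL1R1, the receptor of IL1A and IL1B, had an SD of 0.512 and IL18R1, the ligand-binding chain for IL18, one of 0.200. Both lay below the median probe set, with means of 5.31 and 4.58. The means of IL1A, IL1B and IL18 were 6.82, 9.78 and 9.81, so level and role are not separated here. The other probe set of IL1R1 had r = -0.141 with the chosen one, so the gene's level depends on the probe set.

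Within the common gamma chain family and its relatives, IL15 and IL7R varied most. IL15, a survival factor of NK cells and memory CD8+ T cells, ran from 4.80 through 6.88 to 8.98 (SD 1.13). IL7R, the receptor chain that keeps naive T cells alive, ran from 7.49 through 9.52 to 10.87 (SD 0.927). IL13RA1, a receptor chain for IL13 that also pairs with IL4R, ran from 3.80 through 5.43 to 6.45 (SD 0.739). The common chain itself, IL2RG, had an SD of 0.524, IL2RA, the alpha chain of the IL-2 receptor, one of 0.323, and IL4R, the receptor chain for IL4, one of 0.411. The other probe set of IL4R varied only loosely with it (r = 0.336). The T cell ligands of this group lay low on the scale. IL2, IL4, IL7, IL13 and IL21 had means between 3.25 and 4.50. The SD of IL13 over pigs was only 1.02 times that between columns of the same pig, and for IL21 and IL4 the ratios were 1.09 and 1.29. The probe sets of IL13, IL21 and IL4 therefore hardly separated one pig from another. For IL2 and IL7 the ratios were 1.97 and 4.09.

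The IL-6 and IL-12 relatives and the remaining interleukins varied less. IL27RA, the receptor chain for IL27, ran from 6.07 through 7.95 to 8.89 (SD 0.581). IL12RB2, the signalling chain of the IL-12 receptor, had an SD of 0.469 and IL11RA, the receptor of IL11, one of 0.303. IL6 and its receptor chain IL6R had SDs of 0.317 and 0.269, and IL12A and IL12B, the subunits of IL-12, 0.332 and 0.387. IL16, a T cell chemoattractant stored as a precursor, was high with little spread, from 9.47 through 9.99 to 10.41 (SD 0.212). IL17A, IL17B, IL5 and IL34 had SDs between 0.220 and 0.415. The probe sets of IL17B were poorly related (r = 0.284 and 0.0844 with the chosen one), and the SD ratio of IL5, the eosinophil growth factor, was 1.25.

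In the TNF superfamily the ligand TNFSF10, also called TRAIL, and the receptor TNFRSF21, also called death receptor 6, varied most. TNFSF10 ran from 3.93 through 5.44 to 7.59 (SD 0.897). TNFRSF21 ran from 6.68 through 8.60 to 10.48 (SD 0.840). TNFSF13, or APRIL, a ligand that supports plasma cells, ran from 5.02 through 6.48 to 7.98 (SD 0.673), but its other probe set had r = -0.197 with it. The TNF receptors TNFRSF1A and TNFRSF1B had SDs of 0.590 and 0.499. TNFRSF17, the plasma cell receptor for TNFSF13, had an SD of 0.520, TNFRSF12A, the receptor of TWEAK, one of 0.415, and TNFSF4, the OX40 ligand, one of 0.296. The probe sets of TNFRSF12A varied together only loosely (r = 0.340). Over all 37 members, the SD over pigs was more than 5 times the SD within pigs in 15 and less than 1.5 times it in 4, namely IL13, IL21, IL5 and IL4. The limit given for the SD within pigs of IL1B holds for these ratios too.

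**Figure D1:**
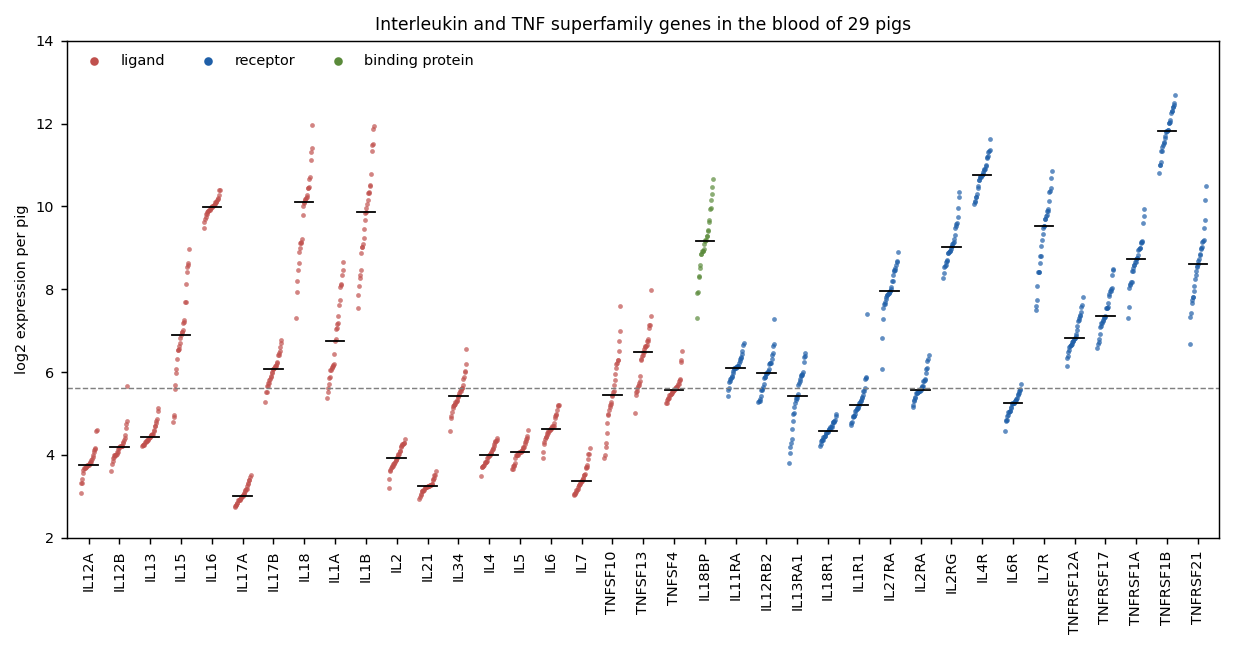
Log2 expression (vertical axis) of each of the 37 members in each of the 29 pigs, with ligands in red, receptors in blue and IL18BP in green; each point is a pig, placed in order of level within its gene, the short bar is the median, and the dashed line is the median probe set at 5.61. IL1B, IL15 and IL18 span more than 4 units, whereas IL16 spans 0.933.

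The members were next set against the blood cell lists over the 29 pigs, by the slope of each probe set on the list's mean in limma, with Benjamini-Hochberg adjustment over all probe sets. The monocyte list had the most members with a slope: 6 of 37, or 16.2%, against 4.74% of all probe sets. Of these, 5 rose with the list (2.64% of all probe sets) and 1 fell (2.10%). 10 list genes were measured, among them CD14, CD163 and VCAN.

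IL18 rose by 1.59 per unit of the monocyte list (SE 0.284, limma adjusted p = 0.00159), with r = 0.715 and rho = 0.736 (permutation p = 0.00003 and 0.00001, n = 29). IL13RA1 rose by 1.06 per unit (SE 0.195, adjusted p = 0.00193), with r = 0.709. TNFRSF21 and TNFRSF1A rose by 1.16 (SE 0.230) and 0.81 (SE 0.164) per unit, with adjusted p = 0.00342 and 0.00407. The ligand TNFSF13 rose by 0.84 (SE 0.198, adjusted p = 0.0111), for its chosen probe set only, as the other had r = -0.197 with it. IL7R was the member that fell, with a slope of -1.02 (SE 0.288, adjusted p = 0.0342). The sign of r was the same in each spike-in class and in each EIF1AY class for all 6 members. IL1B and IL1A did not pass, with r = 0.308 and 0.340 and adjusted p = 0.391 and 0.316.

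Against the T cell list, 4 of 37 members (10.8%) had a slope past the threshold, as had 6.82% of all probe sets. IL27RA rose with the list (3.48% of all probe sets), with a slope of 0.97 (SE 0.169, adjusted p = 0.00050) and r = 0.735. TNFSF13, TNFRSF1A and TNFRSF21 fell (3.33% of all probe sets), with slopes of -1.03 (SE 0.211), -0.89 (SE 0.189) and -1.21 (SE 0.273) and adjusted p = 0.00243, 0.00332 and 0.00533. These 3 genes were also among those that rose with the monocyte list, and the lists themselves ran against each other over the pigs (r = -0.523). Which of the lists the genes follow was not tested. For TNFSF13 the slope is again that of the chosen probe set, and under 5 alternatives its slope on the T cell list lay between -1.08 and -0.53.

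A single pig stood apart and bears on these counts. It had the lowest T cell list mean, 7.70 against 8.08 to 9.68 in the other pigs, the lowest B cell mean, 8.46, and the highest neutrophil mean, 9.19. It served as replicate 5 of the CD4+--IFN-alpha low group, replicate 5 of the CD4+--IL-10 high group and replicate 4 of the CD8+--IL-10 low group. Among the members it had the lowest levels of IL15 (4.80), IL27RA (6.07), TNFSF10 (3.93) and IL11RA (5.43), and the highest of TNFRSF21 (10.48) and TNFRSF12A (7.81). Without it, TNFSF13 (adjusted p = 0.0225) and TNFRSF1A (0.0438) still fell with the T cell list, and 1.17% of all probe sets passed. IL27RA (slope 0.74, adjusted p = 0.0601) and TNFRSF21 (-1.11, 0.104) missed the threshold, with slopes of the same sign as with all pigs. With the monocyte list, IL18, IL13RA1, TNFRSF21, TNFRSF1A and TNFSF13 kept adjusted p between 0.00176 and 0.0195. IL15 joined them (slope 1.23, SE 0.334, adjusted p = 0.0318) and IL7R missed the threshold (slope -0.94, adjusted p = 0.0593), with 3.99% of all probe sets past the threshold.

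**Figure D2:**
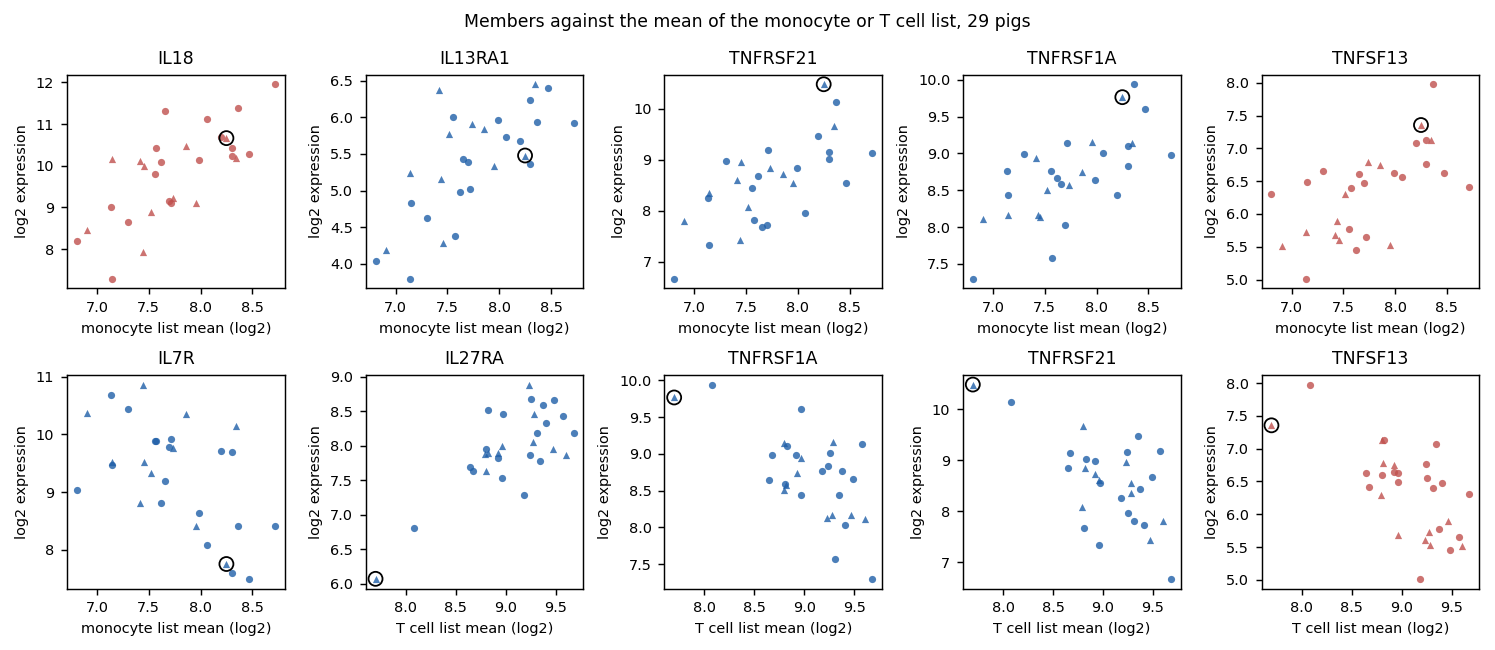
Log2 expression (vertical axes) of the 6 members related to the monocyte list and the 4 related to the T cell list, against the mean log2 expression of that list (horizontal axes) in 29 pigs. Each point is a pig, triangles mark the lower spike-in class, ligands are red and receptors blue, and the ringed pig has the lowest T cell list mean, 7.70; it lies at an end of the T cell panels.

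The neutrophil list, with 9 measured genes such as S100A8 and LTF, had 5 of 37 members past the threshold (13.5%), while 15.8% of all probe sets passed, 8.73% rising and 7.02% falling. TNFRSF12A, IL5, IL17B and TNFSF4 rose with it, with slopes from 0.29 for TNFSF4 to 0.51 for TNFRSF12A, and IL11RA fell (-0.36, SE 0.0926, adjusted p = 0.0130). IL5 lay low on the scale (mean 4.07), with an SD over pigs only 1.25 times that within pigs. The other probe sets of IL17B had r = 0.284 and 0.0844 with the chosen one, and that of TNFRSF12A had r = 0.340. The share of members was no higher than the background. Without the pig of lowest T cell mean, 0 of these 5 passed in limma, and 0.300% of all probe sets did. The slopes were then 0.34 for IL5 (0.30 with all pigs), 0.40 for IL17B (0.41), 0.47 for TNFRSF12A (0.51), 0.22 for TNFSF4 (0.29) and -0.32 for IL11RA, with adjusted p between 0.0653 and 0.293.

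For the B cell list (3 measured genes) 2 members passed, against 2.78% of all probe sets (1.89% rising and 0.896% falling): IL27RA rose (slope 1.11, SE 0.229, adjusted p = 0.0104) and IL4R fell (-0.66, SE 0.183, adjusted p = 0.0450). Without the same pig neither passed (adjusted p = 0.513 and 0.314), with slopes of 0.75 for IL27RA and -0.88 for IL4R, while 0.0125% of all probe sets passed. Leaving out any of 10 other pigs left IL27RA only past the threshold. IL4R also fell with the erythroid list (slope -0.31, SE 0.0713, adjusted p = 0.0234), the only member to do so, while 1.11% of all probe sets passed (0.363% falling); that count was 0 without any of 4 pigs, and without the pig of lowest T cell mean it was 2, with IL27RA. The cytotoxic and NK cell, the platelet, and the eosinophil and basophil lists had 0 members past the adjusted threshold in limma, and 7, 0 and 2 (of 37) at an unadjusted p under 0.05, against 9.16%, 7.02% and 7.74% of all probe sets. Of all probe sets, 0.463%, 1.69% and 0.00833% passed the adjusted threshold for these lists.

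Some members varied together over the pigs. IL1B and IL1A did so most closely: each was the only member past the adjusted threshold on the level of the other, with r = 0.787 and rho = 0.780 (permutation p = 0.00001 for each, the smallest the 100000 permutations can give). Only 0.0458% of all probe sets had a slope on IL1B, and 1.18% had one on IL1A, against 2.78% of the other members in each case. Without the 2 pigs farthest from the median r was 0.738, and it was 0.679 and 0.855 in the lower and higher spike-in class. IL1A also rose with IL18 (r = 0.571, limma adjusted p = 0.0463), as 1 of 36 other members (2.78%) against 1.46% of all probe sets. Fitted the other way the limma adjusted p was 0.0517. TNFRSF1A (r = 0.743, limma adjusted p = 0.00156) and IL18 (r = 0.551, 0.0288) rose with TNFRSF21. These were 2 of 36 other members (5.56%), no more than the 5.73% of all probe sets past the threshold. Fitted the other way, TNFRSF21 on IL18 had an adjusted p of 0.0581.

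For IL18BP 2 of 36 other members passed (5.56%), near the 4.63% of all probe sets. Both were receptors of other families, and IL18, the ligand that IL18BP captures, did not pass (r = 0.168). Over 29 pigs IL27RA fell with IL18BP (r = -0.621, adjusted p = 0.0321) and TNFRSF1B rose with it (r = 0.594, 0.0328), against 4.63% of all probe sets. In the lower spike-in class these correlations were -0.398 and 0.103, and in the higher class -0.823 and 0.784. IL1R1 rose with TNFSF13 (r = 0.588, limma adjusted p = 0.0338), as 1 of 36 other members (2.78%) against 2.18% of all probe sets. Without the 2 pigs farthest from the median this r was 0.331. It holds for the chosen probe sets only, since the other probe set had r = -0.141 with the chosen one for IL1R1 and -0.197 for TNFSF13. For IL15, IL7R, TNFSF10 and IL13RA1, 0 other members passed in limma, with 0%, 6.03%, 0.0125% and 1.97% of all probe sets past the threshold.

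The genes most like the variable members were taken as those with the highest r over 29 pigs among 6764 genes, a choice made after the members' spread was seen and given with no test. IL1A was closest to PLEK (r = 0.811), the NF-kappa-B inhibitor NFKBIA (0.804), the kinase PIM3 (0.802) and TLR2 (0.780), the receptor for bacterial lipoproteins. IL1B was closest, after IL1A, to RNF19B (0.756), PIM3 (0.736), JAG1 (0.732) and the adhesion molecule ICAM1 (0.728). IL15 was closest to the interferon-induced transcription factor IRF1 (0.714), followed by GSE1 (0.693), ADGRE5 (0.663), CD47 (0.633) and ANTXR2 (0.63). IL7R was closest to PIK3IP1 (0.831), HNRNPA1 (0.817), SLC11A2 (0.806) and TIMM10B (0.803), and then to GATA3 (0.801), a T cell transcription factor. TNFSF10 was closest to RSAD2 (0.672), an interferon-induced antiviral gene, and to CASP8 (0.668), the caspase that death receptors activate. CEPT1 (0.664), CUL2 (0.632) and KHNYN (0.63) came next. IL13RA1 was closest to QPCT (0.834), and TYK2 (0.787), a kinase bound to several cytokine receptors, stood among its 5 nearest with CAST, PAM and SNX10. The nearest to IL18 were TIMM8B (0.734), IKBKG, LAMTOR4, LYN and NUDT7. Those to TNFRSF21 were ATP6V0E1 (0.784), RAB7A, SLC2A3, CST3 and ADA2. IL18BP had SZRD1 (0.75), KLF15, PTGES, THRA and GALK1, and TNFSF13 had SPINT2 (0.827), PICALM, RNF2, ACVR1 and RAB1A.

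Known partners were examined in the same way. Of 24 ligand and receptor pairs or receptor chain pairs listed, 8 had both genes among the members, and 0 of the 8 passed after adjustment over the 8 (permutation test, 0 also at an unadjusted p for Pearson's r under 0.05). The highest were TNFRSF1A with TNFRSF1B (r = 0.360, rho = 0.319, permutation p = 0.0544 and 0.0932) and IL4R with IL13RA1 (r = 0.352, rho = 0.373, p = 0.0612 and 0.0462), with adjusted p = 0.170 for each r. IL4R with IL13RA1 had r = 0.812 in the lower spike-in class and 0.0767 in the higher. The lowest was IL7 with IL7R (r = -0.346, rho = -0.213, permutation p = 0.0639 and 0.268), and r was -0.0635 without the 2 farthest pigs. IL1B with IL1R1 (r = -0.0614), IL18 with IL18R1 (-0.0900), IL18 with IL18BP (0.168), IL6 with IL6R (0.0566) and TNFSF13 with TNFRSF17 (0.0421) lay near 0. Of these genes and IL7, IL1R1, IL18R1, IL6, IL6R and IL7 lay below the median probe set, with means between 3.44 and 5.31. The SD over pigs was only 1.53 times that within pigs for IL18R1 and 1.5 times for IL6. With probe sets this dim, a low r does not show that partners vary apart. With arrays centred on their median in place of quantile normalization, 2 of the 8 pairs passed, IL4R with IL13RA1 (r = 0.496) and TNFRSF1A with TNFRSF1B (r = 0.479).

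Each trait pair asked which genes are expressed differently in the low and the high tail of its self-product. In limma, 0 of the 37 members, and 0 of all 23999 probe sets, passed an adjusted p of 0.05 in any of the 8 pairs. The smallest adjusted p of a member was 0.552. Members with an unadjusted p under 0.05 numbered from 0 to 5 per pair, and are given below as values. In each pair the low and high arrays overlapped for every member. The share of all probe sets whose groups did not overlap was 1.64% in CD4+--W35, 0.408% in CD8+--W35, 0.638% in IFN-alpha--W35, 0.533% in IL-10--W35, 0.504% in CD4+--IFN-alpha, 1.12% in CD4+--IL-10, 0.283% in CD8+--IFN-alpha and 0.296% in CD8+--IL-10.

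**Figure D3:**
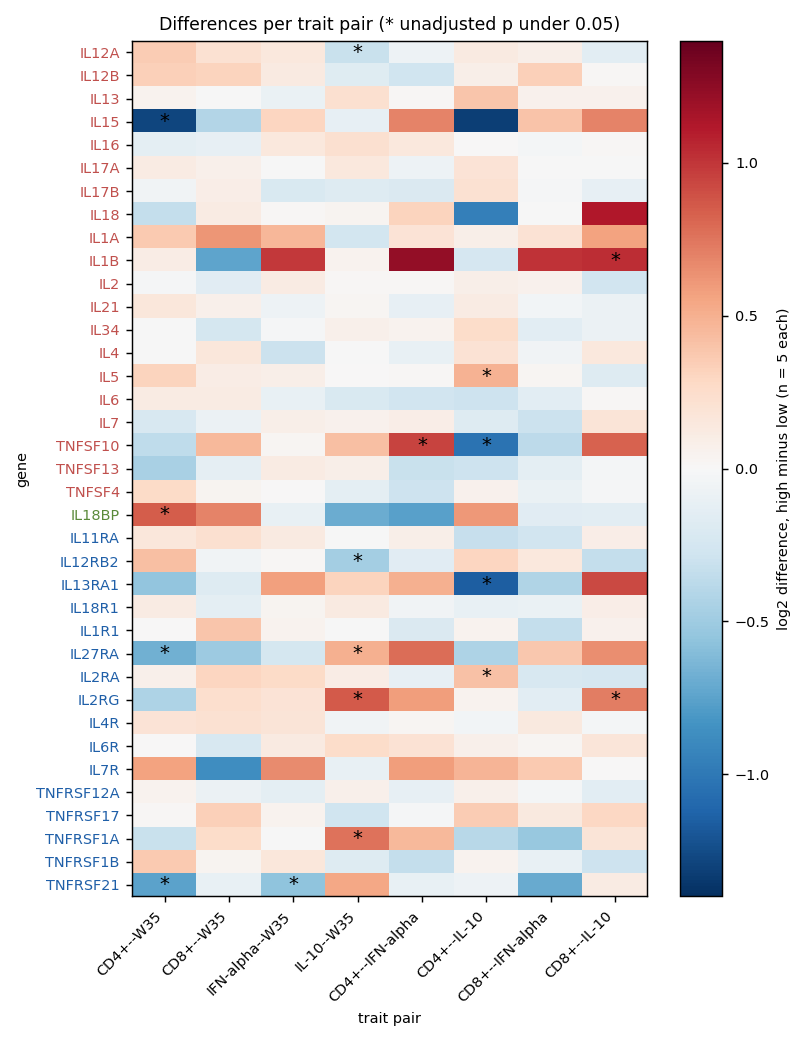
Difference in log2 expression, high minus low (colour scale), of the 37 members (rows, with ligands in red, receptors in blue and IL18BP in green) in the 8 trait pairs (columns), with 5 arrays per group. Asterisks mark the 17 combinations with an unadjusted p under 0.05; none passed the adjusted threshold, and pairs share pigs.

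In CD4+--W35, 4 members (10.8%) had an unadjusted p under 0.05, against 8.93% of all probe sets. IL18BP was higher in the high group, and IL27RA, TNFRSF21 and IL15 were lower. That is 1 member higher, against 4.13% of all probe sets, and 3 lower, against 4.8%. IL18BP read 8.73, 9.26, 8.03, 9.29 and 8.99 in the low arrays and 9.69, 9.27, 9.55, 10.41 and 9.63 in the high arrays. Of the high arrays, 4 lay above all low ones. The difference was 0.85 (SE 0.271, unadjusted p = 0.00909, limma adjusted p = 0.552). IL15 read 5.58, 8.60, 8.54, 7.27 and 8.53 in the low arrays and 6.25, 6.60, 5.61, 6.66 and 7.01 in the high arrays, a difference of -1.28 (SE 0.538). Low replicate 1 was the lowest of all 10 arrays, and without it the difference was -1.81. TNFRSF21 and IL27RA differed by -0.75 (SE 0.305) and -0.67 (SE 0.254).

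Beside these values, the monocyte list was lower in the high group for 9 of 10 genes, with a mean of 8.06 ± 0.477 (SD, n = 5) in the low and 7.50 ± 0.628 in the high arrays. The cytotoxic and NK cell list was higher for 7 of 8 genes, at 8.85 ± 0.193 and 9.52 ± 0.361. The highest low array was 9.12 and the lowest high array 9.15, and the chance of such a gap was not tested. With the monocyte and T cell means as covariates, IL18BP differed by 1.40 (unadjusted p = 0.00552), IL15 by -0.75 (0.353), TNFRSF21 by -0.53 (0.293) and IL27RA by -0.56 (0.214). The part of the cytotoxic and NK cell list was not tested. Within the lower and the higher spike-in class the difference of IL18BP was 0.89 and 0.64, that of IL27RA -0.25 and -0.81, that of TNFRSF21 -1.18 and -0.58, and that of IL15 -0.47 and -1.75. The lower class held only 1 high and 2 low arrays of this pair. The count of 4 was 7 without low replicate 1, 2 without low replicate 2, low replicate 5 or high replicate 2, and 1, IL18BP, without high replicate 1.

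In CD8+--W35, 0 members had an unadjusted p under 0.05 in limma, against 3.43% of all probe sets. The largest difference was that of IL7R, at 9.57 ± 1.21 (SD, n = 5) in the low and 8.71 ± 0.589 in the high arrays. This pair shares 3 low and 2 high pigs with CD4+--W35. The cytotoxic and NK cell list was higher in the high group for 7 of 8 genes, at 8.76 ± 0.173 in the low and 9.42 ± 0.409 in the high arrays. The count was 1 without low replicate 1, low replicate 2, high replicate 2 or high replicate 4, and 2 without high replicate 1 or high replicate 5.

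In IFN-alpha--W35, TNFRSF21 was lower in the high group, as the only member (2.70%) with an unadjusted p under 0.05, against 4.24% of all probe sets, or 2.04% in that direction. TNFRSF21 read 9.16, 8.81, 9.53, 8.79 and 8.52 in the low arrays and 7.81, 8.53, 8.57, 8.31 and 8.73 in the high arrays. Of the high arrays, 2 lay below all low ones. The difference was -0.57 (SE 0.216, unadjusted p = 0.0230, limma adjusted p = 0.999), and it was -0.14 within the lower and -0.97 within the higher spike-in class. The monocyte list was lower for 8 of 10 genes, at 8.03 ± 0.474 (SD, n = 5) in the low and 7.59 ± 0.268 in the high arrays. With the monocyte and T cell means as covariates TNFRSF21 differed by -0.31 (unadjusted p = 0.292). Pigs of the higher EIF1AY class were 2 of 5 in the low and 4 of 5 in the high group, and with EIF1AY as a covariate the difference of TNFRSF21 was -0.54 (unadjusted p = 0.0540). The count was 3 without low replicate 3, where TNFRSF21 was no longer among them, and 2 without low replicates 1 or 5 or high replicates 1, 2 or 4, where TNFRSF21 was absent without high replicate 1.

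In IL-10--W35, 5 members (13.5%) had an unadjusted p under 0.05, against 3.19% of all probe sets. The receptors IL2RG, TNFRSF1A and IL27RA were higher in the high group (3 members, 1.74% of all probe sets in that direction). IL12A and its receptor chain IL12RB2 were lower (2 members, 1.45%). IL2RG read 9.15, 8.87, 9.10, 9.54 and 8.47 in the low arrays and 10.31, 9.29, 10.22, 10.53 and 9.08 in the high arrays. High replicates 1, 3 and 4 lay above all low arrays. The difference was 0.86 (SE 0.303, unadjusted p = 0.0160, limma adjusted p = 1).

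TNFRSF1A read 8.84, 8.76, 8.28, 9.0 and 7.62 in the low arrays and 9.04, 9.26, 8.89, 9.84 and 9.24 in the high arrays. Only high replicate 3 lay among the low values, and the difference was 0.76 (SE 0.270, unadjusted p = 0.0167, limma adjusted p = 1). IL12A differed by -0.31 (SE 0.124) with group means of 4.01 and 3.70, low on the scale, and IL12RB2 by -0.47 (SE 0.210). IL27RA differed by 0.50 (SE 0.199), where it had differed by -0.67 in CD4+--W35; the pairs share pigs and the difference between them was not tested.

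The EIF1AY classes were unequal in this pair: 1 of 5 low and 4 of 5 high pigs were in the higher class. Class and group can therefore hardly be told apart. With EIF1AY as a covariate 0 members had an unadjusted p under 0.05 in limma. The differences were then 0.39 for IL2RG, 0.54 for TNFRSF1A, 0.40 for IL27RA, -0.30 for IL12A and -0.36 for IL12RB2. With the monocyte and T cell means as covariates they were 0.75 for IL2RG, 0.91 for TNFRSF1A, 0.26 for IL27RA (unadjusted p = 0.177), -0.25 for IL12A (0.119) and -0.54 for IL12RB2 (0.0570). The T cell list was higher for 8 of 9 genes, at 9.12 ± 0.348 (SD, n = 5) in the low and 9.32 ± 0.213 in the high arrays, and the cytotoxic and NK cell list lower for 6 of 8, at 9.86 ± 0.207 and 9.27 ± 0.464. Within the higher spike-in class, with 4 low and 5 high arrays, IL2RG differed by 0.89, TNFRSF1A by 0.84, IL27RA by 0.52, IL12A by -0.26 and IL12RB2 by -0.48; the lower class held 1 low array. The count was 3 without low replicate 1, low replicate 2 or high replicates 2, 3 or 4. Without each of these, IL2RG and TNFRSF1A were still among them.

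In CD4+--IFN-alpha, TNFSF10 was higher in the high group, the only member (2.70%) with an unadjusted p under 0.05, against 3.87% of all probe sets, or 2.05% in that direction. TNFSF10 read 5.99, 5.63, 3.93, 4.22 and 4.36 in the low arrays and 6.29, 5.20, 5.85, 6.03 and 5.48 in the high arrays. Of the low arrays, 3 lay below all high ones. The difference was 0.94 (SE 0.396, unadjusted p = 0.0354, limma adjusted p = 0.971), and 1.04 and 0.99 within the lower and the higher spike-in class. The lower class held only 1 high and 2 low arrays of this pair. Pigs of the higher EIF1AY class were 1 of 5 in the low and 5 of 5 in the high group, so class and group can hardly be told apart. With EIF1AY as a covariate the difference of TNFSF10 was -0.30 (limma unadjusted p = 0.622). The T cell list was higher for 9 of 9 genes, at 8.75 ± 0.879 (SD, n = 5) in the low and 9.20 ± 0.291 in the high arrays, and the monocyte list stood at 7.80 in each. The count was 0 without high replicate 1 or 3. It was 2 without low replicates 1, 2 or 4 or high replicates 2 or 5, and without low replicate 4 TNFSF10 was not among them. Low replicate 5 is the pig with the lowest T cell mean, and without it TNFSF10 differed by 0.83 (unadjusted p = 0.0758) and TNFRSF1A was the 1 member counted. Without low replicate 3 TNFSF10 differed by 0.72 (0.0889), and without high replicate 4 by 0.88 (0.0707).

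In CD4+--IL-10, 4 members (10.8%) had an unadjusted p under 0.05, against 6.18% of all probe sets. IL13RA1 and TNFSF10 were lower in the high group (2 members, 3.86% of all probe sets in that direction), and IL2RA and IL5 were higher (2 members, 2.32%). IL13RA1 read 5.73, 6.55, 6.25, 6.34 and 5.88 in the low arrays and 4.45, 5.06, 5.99, 4.08 and 5.38 in the high arrays. Only high replicate 3 lay among the low values. The difference was -1.16 (SE 0.329, unadjusted p = 0.00458, limma adjusted p = 0.749), and without any of the 10 arrays in turn it lay between -1.41 and -0.93 with an unadjusted p of at most 0.0131. TNFSF10 read 6.18, 5.49, 6.26, 6.89 and 5.79 in the low arrays and 5.15, 5.37, 6.65, 4.18 and 4.11 in the high arrays. The difference was -1.03 (SE 0.451), where in CD4+--IFN-alpha it had been 0.94. These pairs share 6 pigs, of which 2 were low in CD4+--IFN-alpha and high here and 1 the reverse, and the difference was not tested.

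IL2RA differed by 0.42 (SE 0.173) and IL5 by 0.49 (SE 0.211) in the same pair. The group means of IL5 were 3.90 and 4.38, low on the scale. The monocyte list was lower in the high group for 9 of 10 genes, at 8.12 ± 0.483 (SD, n = 5) in the low and 7.56 ± 0.464 in the high arrays. With the monocyte and T cell means as covariates the difference was 0.51 for IL2RA (unadjusted p = 0.0434), 0.48 for IL5 (0.0933), -0.80 for IL13RA1 (0.0614) and -0.60 for TNFSF10 (0.261). Within the lower and the higher spike-in class IL13RA1 differed by -0.84 and -1.14, TNFSF10 by -1.74 and -1.20, IL2RA by 0.55 and 0.32, and IL5 by 0.76 and 0.53. The lower class held only 1 high and 3 low arrays of this pair. Replicate 5 of the high group is the pig with the lowest T cell mean, and without it IL13RA1 differed by -1.26 and TNFSF10 by -0.78, and the 3 members with an unadjusted p under 0.05 were IL13RA1, IL18 and IL6. The count was 1, IL13RA1, without low replicate 1, and 2, IL13RA1 and IL5, without low replicate 3.

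In CD8+--IFN-alpha, 0 members had an unadjusted p under 0.05 in limma, against 1.98% of all probe sets. The largest difference was that of IL1B, at 9.14 ± 1.41 (SD, n = 5) in the low and 10.15 ± 1.28 in the high arrays, within the spread of each group. Of the members, 14 were higher and 23 lower in the high group. The cytotoxic and NK cell list was higher for 8 of 8 genes, at 9.44 ± 0.372 (SD, n = 5) in the low and 10.16 ± 0.392 in the high arrays. The count was 1 without low replicate 1, low replicate 5 or high replicate 1, and 2 without low replicate 4 or high replicate 3.

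In CD8+--IL-10, IL2RG and IL1B were higher in the high group. They were the 2 members (5.41%) with an unadjusted p under 0.05, against 2.53% of all probe sets, or 1.93% in that direction. IL2RG read 8.87, 9.22, 9.38, 9.05 and 9.05 in the low arrays and 9.70, 9.30, 10.25, 9.29 and 10.59 in the high arrays. High replicates 1, 3 and 5 lay above all low arrays. The difference was 0.71 (SE 0.256, unadjusted p = 0.0174, limma adjusted p = 1). IL1B read 8.72, 9.30, 10.53, 8.25 and 7.98 in the low arrays and 10.70, 9.66, 10.45, 9.92 and 9.22 in the high arrays, a difference of 1.03 (SE 0.457). Low replicate 3 was the second highest of all arrays, and without it the difference was 1.43.

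The monocyte list was higher for 10 of 10 genes in this pair, at 7.52 ± 0.473 (SD, n = 5) in the low and 8.24 ± 0.517 in the high arrays. With the monocyte and T cell means as covariates IL2RG differed by -0.07 (unadjusted p = 0.875) and IL1B by 0.86 (0.399). Pigs of the higher EIF1AY class were 0 of 5 in the low and 3 of 5 in the high group, so class and group can hardly be told apart. With EIF1AY as a covariate 0 members had an unadjusted p under 0.05 in limma, with a difference of 0.13 for IL2RG and 0.94 for IL1B. Within the lower and the higher spike-in class IL2RG differed by 0.09 and 0.91, and IL1B by 0.27 and 1.41. The lower class held only 1 high and 2 low arrays of this pair. The count was 5 without low replicate 3, when IL13RA1, IL15 and TNFSF10 joined, and 1, IL2RG, without low replicate 1 or high replicates 1 or 3. Without low replicate 4, the pig with the lowest T cell mean, the 3 members were IL2RG, IL13RA1 and IL18, and IL1B differed by 0.86 (unadjusted p = 0.0973).

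**Figure D4:**
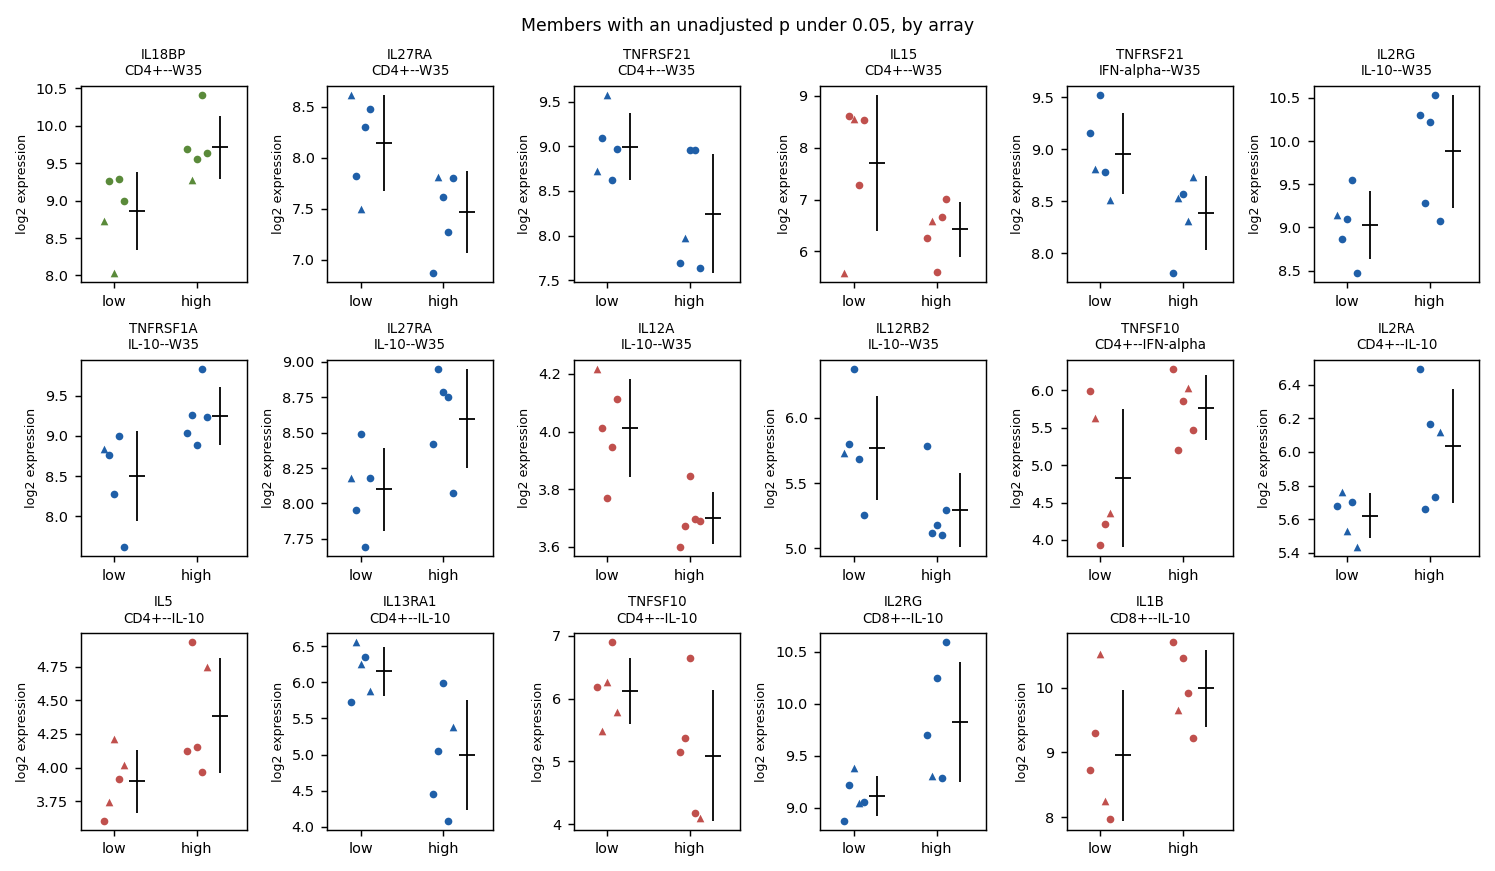
Log2 expression (vertical axes) in each array of the low and high group for the 17 combinations of member and trait pair with an unadjusted p under 0.05; each point is an array, triangles mark the lower spike-in class, and the bar with its line is the mean and SD of 5 arrays. In every panel the low and high arrays overlap, and IL13RA1 in CD4+--IL-10 has 4 of 5 high arrays below all low ones.

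The median difference lay between -0.01 and 0.08 for the 20 ligands and between -0.10 and 0.09 for the 16 receptors, while that of all probe sets lay between -0.02 and 0.05. From 8 to 13 ligands and from 6 to 12 receptors were higher in the high group. The mean of the ligands minus that of the receptors was computed for each array and compared between groups. Its difference between high and low ran from -0.16 in IL-10--W35 to 0.15 in CD8+--IFN-alpha, in each pair less than the larger of the group SDs. Without dim probe sets it was -0.23 in CD4+--W35 (0.01 with all members), 0.15 in IFN-alpha--W35 (-0.0015), -0.40 in CD4+--IL-10 (-0.06) and 0.37 in CD8+--IL-10 (0.05).

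The signalling partners of these genes were counted in 4 lists, with 0 genes past the adjusted threshold in limma in any pair; 1 gene at an unadjusted p under 0.05 is the smallest count above 0 in such short lists. Of 8 TNF superfamily genes without a TNFSF or TNFRSF symbol, 1 to 6 were higher in the high group and at most 1 per pair had an unadjusted p under 0.05. Where 1 did, it was 12.5% of the list, against 1.98% to 3.87% of all probe sets in those pairs. The genes were TNF, the inflammatory ligand, in CD8+--W35 (1.25, SE 0.496) and CD27, a receptor of the TNF superfamily, in IL-10--W35 (0.85, SE 0.256). The others were CD40LG, the T cell ligand of CD40, in CD4+--IFN-alpha (0.72, SE 0.316) and CD8+--IL-10 (0.82, SE 0.339), and FASLG, the death ligand of cytotoxic cells, in CD8+--IFN-alpha (0.55, SE 0.195). Of 15 JAK and STAT genes, 13 were higher in the high group in IL-10--W35 and 13 in CD8+--IL-10, pairs that share 7 pigs, with 2 (13.3% of the list) at an unadjusted p under 0.05 in each, against 3.19% and 2.53% of all probe sets. These were STAT5B (0.50) and PIAS1 (0.39), and PTPN6 (1.32) and STAT2 (0.76). The median difference of all probe sets was -0.003 in IL-10--W35 and -0.018 in CD8+--IL-10. In CD8+--IL-10 the list mean was 8.85 ± 0.0386 (SD, n = 5) in the low and 9.10 ± 0.188 in the high arrays. The highest low array was 8.88 and the lowest high array 8.92, so the groups did not overlap. How often the mean of 15 genes parts the groups in this way was not tested. In the other 6 pairs 5 to 10 of the 15 were higher. STAT6 (0.69, SE 0.240) had an unadjusted p under 0.05 in CD4+--W35 (6.67% of the list, against 8.93% of all probe sets). So had TYK2 (0.39, SE 0.172) in CD4+--IFN-alpha (6.67% against 3.87%). In CD4+--IL-10 these were STAT5A (0.37, SE 0.145) and JAK3 (0.49, SE 0.193), the kinase bound to IL2RG (13.3% against 6.18%).

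The list of IL-1 and TLR adaptors and inflammasome genes held the largest of these differences. CASP1, the caspase that activates IL1B and IL18, differed by 1.39 (SE 0.437, unadjusted p = 0.00842, limma adjusted p = 1) in CD8+--IL-10 and by -1.11 (SE 0.419, unadjusted p = 0.0218, limma adjusted p = 0.749) in CD4+--IL-10. These pairs share 7 pigs, of which 3 were high in CD4+--IL-10 and low in CD8+--IL-10 and 2 the reverse. The difference between the pairs was not tested. The adaptor MYD88 differed by 1.25 (SE 0.397) in CD8+--IL-10. CASP1 and MYD88 were 25% of the list at an unadjusted p under 0.05 in that pair, against 2.53% of all probe sets. In CD4+--IL-10 CASP1 was 12.5% of the list, against 6.18%. In CD8+--IL-10 the list mean was 8.61 ± 0.102 (SD, n = 5) in the low and 8.94 ± 0.191 in the high arrays, and 4 of its 8 genes were higher. The groups did not overlap, with the highest low array at 8.71 and the lowest high array at 8.76. The chance of such a gap for a mean of 8 genes was not tested. Of 14 TRAF, death domain and NF-kappa-B genes, 7 to 9 were higher in each pair. NFKBIB (0.78, SE 0.250) and TRAF6 (0.42, SE 0.166) in CD4+--W35 had an unadjusted p under 0.05 (14.3% of the list, against 8.93% of all probe sets). MAP3K7 (0.38, SE 0.142) did so in IFN-alpha--W35 (7.14% against 4.24%).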

How the data were processed

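Per the submitters' processing notes, the authors used RMA and limma, with no version given; RMA gives log2 values, and the deposited table holds log2 expression for 24123 probe sets, between 2.15 and 14.96, with 80 value columns. Array means were almost equal within a trait pair (range at most 0.0642) and ran from 5.65 to 6.09 over all arrays, so each pair was taken as normalized separately. The genome build is not given in the sources used here. After 124 control probe sets were set aside, 23999 were tested, of which 10069 carry 1 symbol in the platform annotation, 198 several and 13732 none; IL3RA shares its probe set with another gene and was left out.

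Each pair was fitted on its own 10 arrays with limma 3.58.1 in R 4.3.3 (data.table version 1.17.8), with eBayes at default settings, two-sided, adjusted over all 23999 probe sets at 0.05. No filter or pseudocount was used. For values over pigs, all columns were quantile normalized together and averaged per pig, and slopes on the mean of a list were fitted in limma; background shares leave out the list's own probe sets. Permutation tests were two-sided with 100000 resamples (Python 3.11.15, numpy 2.4.6, scipy 1.17.1, pandas 2.3.3, figures with matplotlib 3.10.9). Scripts were tested on simulated data. Arrays of the same replicate number were not treated as pairs, since correlations of deviations between arrays of the same number lay between -0.544 and 0.365 and in no pair were all 5 over 0.1.

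Members, gene lists and tests were chosen with earlier results of these data known. Named members were, per pair, up to 5 in each direction with the smallest p among those with an unadjusted p under 0.05, the 10 with the largest SD over pigs, up to 5 per cell type list past the adjusted threshold with the largest correlation, and the partner pairs; the monocyte list has 6 because all are given. Pathway genes were up to 3 per list and pair. The alternatives were another normalization, centring, a filter on dim probe sets, other eBayes settings, covariates, the replicate block, averaged probe sets of a gene, and omission of each array or pig. The monocyte and T cell covariates, the slopes on other members, the counts at an adjusted p under each alternative and leaving out each pig were chosen after seeing the data. Labels do not say whether arrays of a group come from separate litters, so p-values measure the spread between these pigs.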

Additional observations from a re-analysis of the deposited data

Results flagged for a closer look

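IL12RB2 in high replicate 1 of IL-10--W35 read 5.79, apart from the other 4 high arrays, which lay between 5.10 and 5.29. Its gap to the nearest array was 0.718 of the group's range, above the critical value of Dixon's test, 0.71 for 5 arrays. It was the only such value among 34 groups examined, and chance alone gives about 1 in 20. The array lay within the low group's range, 5.26 to 6.38.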

How the results depend on the processing

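The number of arrays limits every count of members in a trait pair: 0 members passed an adjusted p of 0.05 in limma under any alternative, and counts at an unadjusted p under 0.05 are small numbers that move easily. Leaving out each array in turn, these counts ran from 1 to 7 in CD4+--W35, 0 to 2 in CD8+--W35, 1 to 3 in IFN-alpha--W35, 3 to 5 in IL-10--W35, 0 to 2 in CD4+--IFN-alpha, 1 to 4 in CD4+--IL-10, 0 to 2 in CD8+--IFN-alpha and 1 to 5 in CD8+--IL-10. Leaving out each pig, the members past the adjusted threshold ran from 0 to 5 for the neutrophil list, 2 to 5 for the T cell list, 0 to 3 for the B cell list and 0 to 2 for the erythroid list. The cause of the changes below was not tested.

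With the replicate block, which is no pairing given by the labels, the counts were 1 in CD8+--W35, 2 in IFN-alpha--W35, 5 in CD4+--IFN-alpha and 2 in CD8+--IFN-alpha, and the block changed no adjusted call. With the monocyte and T cell means as covariates the counts were 2 in CD4+--W35, 7 in IFN-alpha--W35, 3 in IL-10--W35, 2 in CD4+--IFN-alpha, 1 in CD4+--IL-10, 3 in CD8+--IFN-alpha and 1 in CD8+--IL-10, where IL2RG turned to -0.0742. With EIF1AY as a covariate the counts were 2 in CD8+--W35, IFN-alpha--W35 and CD4+--IFN-alpha, where TNFSF10 turned to -0.30, and 0 in IL-10--W35 and CD8+--IL-10. In CD4+--IFN-alpha, IL-10--W35 and CD8+--IL-10 the EIF1AY class and the group can hardly be told apart. Erythroid and neutrophil means gave 3 in IL-10--W35 and 2 in CD4+--IFN-alpha, and the spike-in class gave 3 in IL-10--W35. Quantile normalization gave 1 in CD8+--W35 and 1 in CD8+--IL-10, and averaging the probe sets of a gene gave 1 in CD8+--IL-10.

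Without dim probe sets the counts were 3 in IL-10--W35, 0 in CD4+--IFN-alpha and 1 in CD4+--IL-10. The ligand minus receptor difference was then -0.23 in CD4+--W35, 0.15 in IFN-alpha--W35, -0.40 in CD4+--IL-10 and 0.37 in CD8+--IL-10. The median SD was 0.830 for the 8 ligands kept and 0.300 for the 12 left out. With 1 column per pig 3 members were related to the neutrophil list and 1 to the B cell list, and IL18 with IL18R1 turned to r = 0.035. With median centring 2 members were related to the neutrophil and 2 to the erythroid list, 2 partner pairs passed, and IL1B with IL1R1 turned to r = 0.0102.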
